A study of Mus musculus with 6 samples.

Results

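Jchain, Mzb1 and Erp44 encode the joining chain of polymeric antibodies and a pair of endoplasmic reticulum proteins that act while those polymers are built and held back for checking. They were taken by gene symbol from the deposited expression table of mouse bone marrow long-lived plasma cells, where each symbol matched 1 row, so 3 of the 13642 genes in the table are described here. The 6 libraries were 3 from old and 3 from young C57BL/6J mice. Old mice were males of 17 to 19 months supplied by the National Institute on Aging. Young mice were females of 2 to 3 months supplied by the Jackson Laboratory or by UCLA. Age, sex and supplier therefore changed together and cannot be told apart. The sort kept CD138-high cells that lacked B220 and IgD, T cell receptors of either type, Gr-1 and CD11b. The series text speaks of 3 independent groups of mice per age, and the labels do not say how many animals stand behind a library, so the p-values reflect only how far these libraries differ, part of which may be technical. In bulk libraries of this kind, fewer cells of a type and less RNA per cell cannot be told apart.

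Plasma cells secrete antibody at a high rate, and IgM and IgA leave the cell as polymers. J chain is a small disulfide-bonded protein that joins the tails of antibody units in IgM and IgA polymers and is required for their transport across epithelia by the polymeric immunoglobulin receptor. MZB1, also called pERp1, is a resident of the endoplasmic reticulum of B-lineage cells that cooperates with the chaperone GRP94 and takes part in antibody folding and secretion. ERp44 is a thioredoxin-family protein that cycles between the endoplasmic reticulum and the early Golgi, catches unassembled IgM units and unfinished polymers through a reactive cysteine, and returns them with the help of KDEL receptors.

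Values are FPKM as deposited, fragments scaled to gene length and to the library total, so levels can be compared between genes. All 3 genes, each protein coding, lie on the minus strand in the GENCODE annotation of GRCm38. Jchain (ENSMUSG00000067149.6) spans chr5:88519809-88527891 and Erp44 (ENSMUSG00000028343.10) spans chr4:48193323-48279558. No exon of another gene overlaps the exons of Jchain or Erp44 in that annotation. Of the 1215 exonic bases of Mzb1, 695 are shared on the same strand with a longer gene model named SPATA24, which has no row in the table under that identifier, so reads there may have been split or dropped by the counting. The nearest neighbour of Mzb1 in the table, Prob1, was at 3.86, 0.987 and 7.25 FPKM in old libraries and 2.12, 0 and 0.117 FPKM in young ones, far below Mzb1 itself.

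The stretches just upstream of the transcription starts are shown for Jchain and Erp44, because the comparison asks how far these genes move together. They are RefSeq sequences on GRCm38.p6, 5′ to 3′ on the minus strand, and end at the base before the start. Jchain's is the 250 bases at chr5:88527898-88528147. Erp44's is the 124 bases at chr4:48279636-48279759 between its most upstream RefSeq start and the annotated start of Invs, a gene that runs the opposite way. Capitals mark matches to the motif letters given after the sequences.
Jchain: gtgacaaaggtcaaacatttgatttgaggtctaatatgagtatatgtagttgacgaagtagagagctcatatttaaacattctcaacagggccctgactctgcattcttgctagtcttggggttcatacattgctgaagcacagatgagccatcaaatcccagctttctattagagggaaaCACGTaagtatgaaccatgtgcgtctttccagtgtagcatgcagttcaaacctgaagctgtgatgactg
Erp44: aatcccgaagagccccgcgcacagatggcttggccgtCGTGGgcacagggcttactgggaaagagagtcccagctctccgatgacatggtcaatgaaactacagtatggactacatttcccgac
Both strands were searched for 6 motifs. The endoplasmic reticulum stress element was spelled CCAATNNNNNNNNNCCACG, its end parts CCAAT and CCACG were also searched alone, and ACGTG, the core shared by elements for XBP1 and ATF6, TATAAA and the octamer ATGCAAAT were added. The Jchain window held ACGTG once, on the opposite strand, starting 69 bases before the start. The Erp44 window held CCACG once, on the opposite strand, starting 87 bases before the start. Over 32851 RefSeq promoter windows of 250 bases, 16.6% held ACGTG and 28.3% held CCACG, so the Jchain match is not rare. The Erp44 window is shorter, at 124 bases, and no share was taken over windows of that length. GC content was 42.0% in the Jchain window and 55.6% in the Erp44 window. The promoter table used here matched 2 of the 3 genes.

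Jchain was the most abundant of all 13642 genes in every library. The table has no rows for antibody heavy and light chain genes, so ranks and shares here and below are among the genes it lists. It was at 19584, 18882 and 7514 FPKM in old replicates 1 to 3, and at 16937, 19359 and 19793 FPKM in young replicates 1 to 3. A single old library, replicate 3, stood well below the other 5, which kept within a narrow band. Old libraries averaged 15326 ± 6775 FPKM and young ones 18697 ± 1539 (SD, n = 3 each), and the groups overlapped. Jchain took 6.51%, 5.88% and 2.47% of all FPKM in old replicates 1 to 3 and 5.64%, 6.26% and 6.36% in young ones (two-sided exact permutation p = 0.7, and 0.7 after adjustment over 7 within-library measures). By limma on log2(FPKM + 1) the log2 change, old minus young, was -0.41 ± 0.39 (SE), with an adjusted p = 0.854 over the 10687 genes whose mean was at least 1 FPKM. As a fold that is 0.754, with a 95% interval of 0.415 to 1.37. Without old replicate 3 the log2 change was 0.04 and its sign turned.

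Mzb1 (ENSMUSG00000024353.4), on chromosome 18, was also among the most abundant transcripts in the table. It was at 823, 1614 and 402 FPKM in old replicates 1 to 3, and at 896, 918 and 800 FPKM in young ones, which put it at rank 28, 15 and 75 of all genes in old libraries and at rank 30, 33 and 40 in young ones. Both the highest and the lowest value were in old libraries, while the young libraries lay close together. Means were 946 ± 615 FPKM in old and 871 ± 62.7 in young libraries (SD, n = 3 each). The log2 change was -0.10 ± 0.43 (SE), with a limma adjusted p = 0.987 and a fold interval of 0.478 to 1.82. It was 0.41 without old replicate 3, the library where Mzb1 was lowest, and -0.60 without old replicate 2, where it was highest.

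Erp44 was present at a far lower level. It was at 96.5, 79.0 and 35.5 FPKM in old replicates 1 to 3, and at 63.0, 55.5 and 64.0 FPKM in young ones, with ranks of 405, 560 and 1620 in old libraries and of 728, 912 and 851 in young ones. Old replicates 1 and 2 lay above every young library and old replicate 3 below every one. Means were 70.3 ± 31.4 FPKM in old and 60.8 ± 4.62 in young libraries (SD, n = 3 each). The log2 change was 0.09 ± 0.42 (SE), with a limma adjusted p = 0.987 and a fold interval of 0.560 to 2.03. Without old replicate 3 it was 0.52, with a limma adjusted p = 0.955, and without old replicate 1, where Erp44 was highest, it was -0.19.

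**Figure D1:**
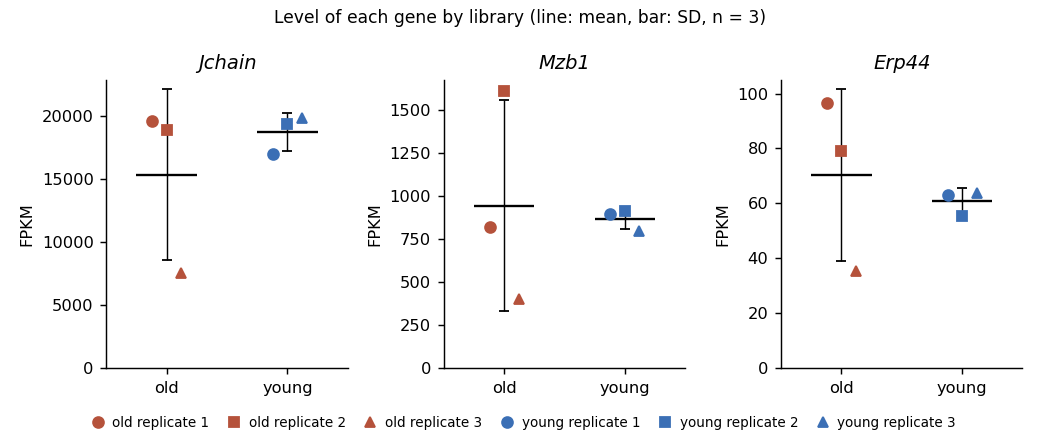
FPKM of Jchain, Mzb1 and Erp44 in each library (vertical axes in FPKM from 0), old left and young right, with a line at the mean and a bar of 1 SD. Old replicate 3, the triangle in the old group, is the lowest library for each gene, at 7514, 402 and 35.5 FPKM.

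None of the 3 genes passed limma's test at an adjusted p under 0.05, and 0 of 10687 genes did, a background of 0%. At an unadjusted limma p under 0.05 there were 632 genes, or 5.91% of those tested, and 0 of the 3. The old and young groups overlapped for all 3 genes, against 8.78% of tested genes with every old library above every young one and 3.42% with every old library below. The median log2 change was 0.23 over all tested genes and 0.02 over the 2835 genes of at least 20 FPKM. Relative to the median of those 2835 genes, Jchain stood at -0.43, Mzb1 at -0.12 and Erp44 at 0.07. The sign for Erp44 flipped under median-ratio scaling, where its log2 change was -0.0065. Fragments were plentiful: by an estimate from the smallest steps of the values, 22.5 M to 28.1 M fragments stood behind a library, about 519000 to 1340000 of them from Jchain, 13400 to 55200 from Mzb1 and 3330 to 8870 from Erp44. These fragments were amplified from little RNA, so they say little about how many molecules were sampled.

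Old replicate 3 was low for the 3 genes together. Set against the mean of the other 5 libraries on the log2(FPKM + 1) scale, it stood at -1.33 for Jchain, -1.27 for Mzb1 and -0.96 for Erp44. Of the 2835 genes of at least 20 FPKM, 4.06% stood as low as Jchain or lower in that library, 4.69% as low as Mzb1 and 8.08% as low as Erp44, while their median was 0.06. Each of the 10 plasma cell marker genes was below the mean of the other libraries there, with a median of -1.07, and 9 of the 10 had their lowest value in that library, against 16.1% of the genes of at least 20 FPKM. Limma called 0 of the 10 between the ages, with 1 positive and 9 negative log2 changes and a median of -0.36, against 4 positive, 6 negative and a median of -0.06 without that library. Sdc1, the CD138 gene used in the sort, was at 274, 350 and 174 FPKM in old libraries and 236, 407 and 321 in young ones. Xbp1, a transcription factor that drives secretory capacity, was at 728, 915 and 414 FPKM in old libraries and 924, 903 and 795 in young ones.

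Markers of some other marrow cells were high in the same library. The summed level of 8 monocyte and macrophage markers was 823 FPKM in old replicate 3, against 214 and 341 in the other old libraries and 97.2 to 360 in young ones. That of 5 erythroid markers was 705 FPKM, against 155 and 28.7 in the other old libraries and 0.336 to 234 in young ones. The neutrophil list peaked in old replicate 2 instead, at 1235 FPKM, against 264 and 656 in the other old libraries and 360 to 570 in young ones, and its members went both ways in old replicate 3. Of the 9, 3 were highest there, the early granule genes Elane, Mpo and Prtn3, at 220, 264 and 86.2 FPKM. Elane was also higher in the other old libraries, at 19.7 and 19.2 FPKM, than in young ones, at 10.2, 0.0475 and 0.0536. It was the 1 of the 9 whose groups did not overlap. Among 6 monocyte and macrophage markers tested, 1 did not overlap, Lyz2, at 179, 196 and 516 FPKM in old libraries and 26.7, 97.1 and 99.1 in young ones. Every old library was higher in 8.78% of all tested genes, and limma called 0 of either list. Another 3, S100a9, Ngp and Lcn2, were lowest there, at 40.2, 38.4 and 3.05 FPKM. Of 5 megakaryocyte markers 3 were highest there, and their sum was 46.0 FPKM against at most 16.3 in any other library. Of the 5 eosinophil and basophil markers, 3 were highest there too, Mcpt8, Cpa3 and Ms4a2, at 265, 54.7 and 45.6 FPKM. The sum of the 5 was 891 to 1418 FPKM in old libraries and 1227 to 1372 in young ones, most of it Prg2. Prg2, a defining marker, was at 861, 1120 and 1052 FPKM in old libraries and 1210, 1353 and 1263 in young ones. Epx, the other defining marker, was at 0, 0 and 0.412 FPKM in old libraries and 0.123, 9.94 and 0 in young ones. The stromal markers were near 0, with sums of 0.246 to 1.67 FPKM in old and 0.109 to 1.61 in young libraries, and the leptin receptor gene Lepr was at most 0.106. The part of these cells in the low level of the 3 genes was not tested.

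B cells and plasmacytoid dendritic cells can express Jchain and Mzb1 as well. The sum of 8 B cell markers was 226 to 649.6 FPKM in old and 366 to 469 in young libraries, most of it Cd79a and Cd79b. Of the 7 tested, 5 had a positive and 2 a negative log2 change, and limma called 0. Groups did not overlap for 2 of them, in opposite directions. Over all tested genes, every old library was above every young one in 8.78% and below in 3.42%. Ms4a1, the CD20 gene, was at 25.3, 15.5 and 6.31 FPKM in old libraries and 2.68, 6.15 and 1.41 in young ones. Pax5, a B cell transcription factor, was at 2.08, 2.03 and 2.44 FPKM in old libraries and 2.77, 7.26 and 2.448 in young ones. Its highest old value, 2.440, lay just below its lowest young value, 2.448. The log2 change of Cd79b was -0.35 and that of Cd79a 0.25. The 7 plasmacytoid dendritic markers summed to 116 to 210 FPKM in old and 60.3 to 302 in young libraries, and their log2 changes went both ways, 4 positive and 3 negative, with 0 called by limma. The defining marker Siglech was at 0.00955, 0.320 and 6.21 FPKM in old libraries and 14.9, 0.406 and 16.0 in young ones. Groups did not overlap for 3 of the 7, beside the same shares of 8.78% and 3.42% over all tested genes. Ccr9, a chemokine receptor gene, was lower in old libraries, at 4.30 to 8.27 FPKM against 9.11 to 13.2. Cox6a2 was at 118.7, 24.2 and 48.4 FPKM in old libraries and at 0, 12.1 and 0 in young ones, and Pacsin1 was also higher in every old library, at 4.43 to 8.06 FPKM against at most 2.03. The part of these cells in the levels of the 3 genes was not tested. T and NK cell markers summed to 7.37 to 37.1 FPKM in old and 8.34 to 40.9 in young libraries, and Cd3e and Cd3d were listed at 0 in all young libraries.

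Ratios taken within a library do not depend on its scaling. Jchain was 68.0, 73.1 and 58.2 times the geometric mean of the 10 plasma cell markers in old replicates 1 to 3, and 66.6, 57.8 and 65.0 times in young ones. Old replicate 3 was no longer set apart: it lay just above young replicate 2. This ratio spanned 1.27-fold from lowest to highest library, while Jchain itself spanned 2.63-fold. Over 2743 genes of at least 20 FPKM that were above 0 in every library, outside the marker list, the same ratio spanned a median of 4.40-fold, and 2 of them, Jchain included, spanned 1.27-fold or less. Abundant genes varied less: over the 54 of at least 500 FPKM the median span was 2.73-fold, and Jchain alone spanned 1.27-fold or less. The other of the 2 was Capn5, a calpain protease gene, and next came Txndc5, a disulfide enzyme, at 1.31-fold. With any 1 of the 10 markers left out, the span for Jchain lay between 1.23-fold and 1.36-fold, and 2 to 6 genes spanned as little. On the log2 scale the old minus young difference was 0.07, from means of 6.05 ± 0.17 in old and 5.98 ± 0.11 in young libraries (SD, n = 3 each, two-sided exact permutation p = 0.5, adjusted 0.7). The ratios to the marker list were chosen after the values had been seen.

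Mzb1 was 2.86, 6.25 and 3.11 times the marker mean in old libraries and 3.52, 2.74 and 2.62 times in young ones. Old replicate 2 was the high value and the other 5 lay within a narrow range. The log2 difference was 0.38 (exact permutation p = 0.5, adjusted 0.7). Jchain was 23.8, 11.7 and 18.7 times Mzb1 in old libraries and 18.9, 21.1 and 24.8 times in young ones, with a log2 difference of -0.31 (exact permutation p = 0.4, adjusted 0.7).

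Erp44 gave the ratios in which old and young libraries did not overlap. It was 0.335, 0.306 and 0.275 times the marker mean in old libraries and 0.248, 0.166 and 0.210 times in young ones, so all 3 old libraries were higher. The log2 difference was 0.57, from means of -1.72 ± 0.14 in old and -2.29 ± 0.29 in young libraries (SD, n = 3 each), with a two-sided exact permutation p = 0.1 (no smaller value is possible with 3 libraries against 3) and 0.35 after adjustment over the 7 measures. By limma, Erp44 itself had a log2 change of only 0.09, and 9 of the 10 markers had negative ones. With any 1 marker left out, the log2 difference of the ratio lay between 0.45, without Fkbp11, and 0.63. The groups stayed apart each time. Of the 2743 genes above, 10.6% had a ratio to the markers that was higher in every old library than in every young one. Jchain was 203, 239 and 212 times Erp44 in old libraries and 269, 349 and 309 times in young ones, with a log2 difference of -0.50 (exact permutation p = 0.1, adjusted 0.35). Of 2752 genes of at least 20 FPKM, 7.38% had a Jchain ratio that was lower in every old library. With such shares of genes doing the same, the lack of overlap does not set Erp44 apart. Mzb1 was 8.53, 20.4 and 11.3 times Erp44 in old libraries and 14.2, 16.5 and 12.5 times in young ones, with a log2 difference of -0.19 (exact permutation p = 0.6, adjusted 0.7).

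**Figure D2:**
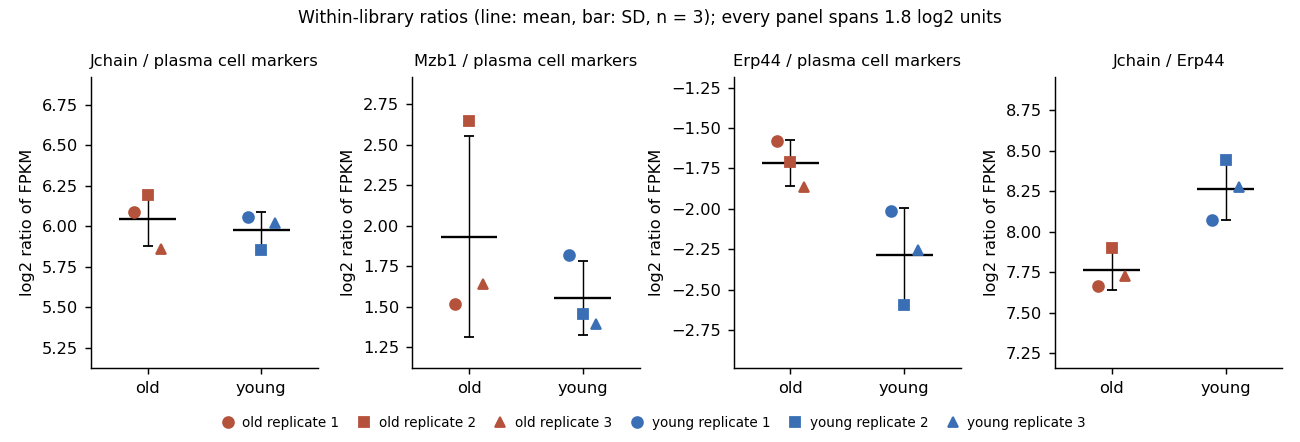
Log2 ratios of FPKM within each library, old left and young right, with a line at the mean and a bar of 1 SD; every vertical axis spans the same number of log2 units. Jchain over the plasma cell markers stays within 1.27-fold across the 6 libraries, while Erp44 over the markers is higher, and Jchain over Erp44 lower, in the 3 old libraries.

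The partners of ERp44 were next described from a list of 14 genes, all in the table and all tested. Limma called 0 higher and 0 lower. Of the 14, 5 had a positive and 9 a negative log2 change, with a median of -0.02. Without old replicate 3 there were 8 positive and 6 negative changes, with a median of 0.05. Ero1lb, an endoplasmic reticulum oxidase that ERp44 holds in place, was at 66.7, 74.1 and 55.3 FPKM in old libraries and 68.3, 52.8 and 3.90 in young ones. Ero1l, another oxidase among these clients, was at 2.02, 9.38 and 22.1 FPKM in old libraries and 4.73, 0.0148 and 15.4 in young ones. It was lower than Ero1lb in every library but young replicate 3. Erap1, an aminopeptidase retained by ERp44, had the smallest p of the list. It was at 28.3, 35.1 and 40.4 FPKM in old libraries and 41.1, 6.05 and 4.30 in young ones. Its log2 change was 1.60 ± 0.74 (SE, limma adjusted p = 0.839), and the groups overlapped through young replicate 1. Prdx4, a peroxiredoxin of the endoplasmic reticulum, was at 35.1, 61.2 and 59.5 FPKM in old libraries and 43.9, 61.7 and 121 in young ones.

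The 3 KDEL receptor genes, whose proteins return ERp44, were tested with 0 called. Kdelr1 was at 57.8, 60.4 and 20.1 FPKM in old libraries and 47.6, 110 and 70.7 in young ones, lowest in old replicate 3. Kdelr2 was at 53.0, 136 and 73.0 FPKM in old libraries and 86.4, 41.1 and 147 in young ones, lowest in young replicate 2. Kdelr3 was at 2.45, 22.9 and 0.0848 FPKM in old libraries and 10.7, 0.919 and 86.7 in young ones, so it too was lowest in old replicate 3. Lman1, the cargo receptor ERGIC-53 that carries glycoproteins and IgM polymers toward the Golgi, was 116 ± 47.6 FPKM in old and 117 ± 42.7 in young libraries (SD, n = 3 each). Of the zinc transporters that supply the compartments where ERp44 works, Slc30a6 was 3.56 ± 3.67 FPKM in old and 11.3 ± 5.64 in young libraries (limma log2 change -1.72 ± 0.93, adjusted p = 0.841), and Slc30a7 was 15.6 ± 1.20 against 16.2 ± 4.68 (SD, n = 3 each).

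Chaperones and disulfide enzymes of antibody folding formed the other list of 14 genes. Limma called 0 of the 14, with 6 positive and 8 negative changes and a median of -0.09, against 10 positive, 4 negative and a median of 0.06 without old replicate 3. In 8 of the 14 the lowest value was in old replicate 3. Hsp90b1, the GRP94 chaperone that MZB1 assists, was at 2344, 3134 and 1237 FPKM in old libraries and 2490, 3134 and 2115 in young ones. Hspa5, the BiP chaperone that binds unassembled heavy chains, was at 687, 938 and 455 FPKM in old libraries and 793, 892 and 434 in young ones. Hspa5 was thus as low in young replicate 3 as in old replicate 3. Pdia4, a disulfide isomerase, was 2289 ± 825 FPKM in old and 2662 ± 655 in young libraries, and Txndc5 was 1203 ± 470 against 1531 ± 219 (SD, n = 3 each). Old replicate 2, the library with the most Mzb1, also had the highest Sdf2l1, a cofactor of BiP, at 401 FPKM against 242 and 152 in the other old libraries and 217 to 249 in young ones.

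**Figure D3:**
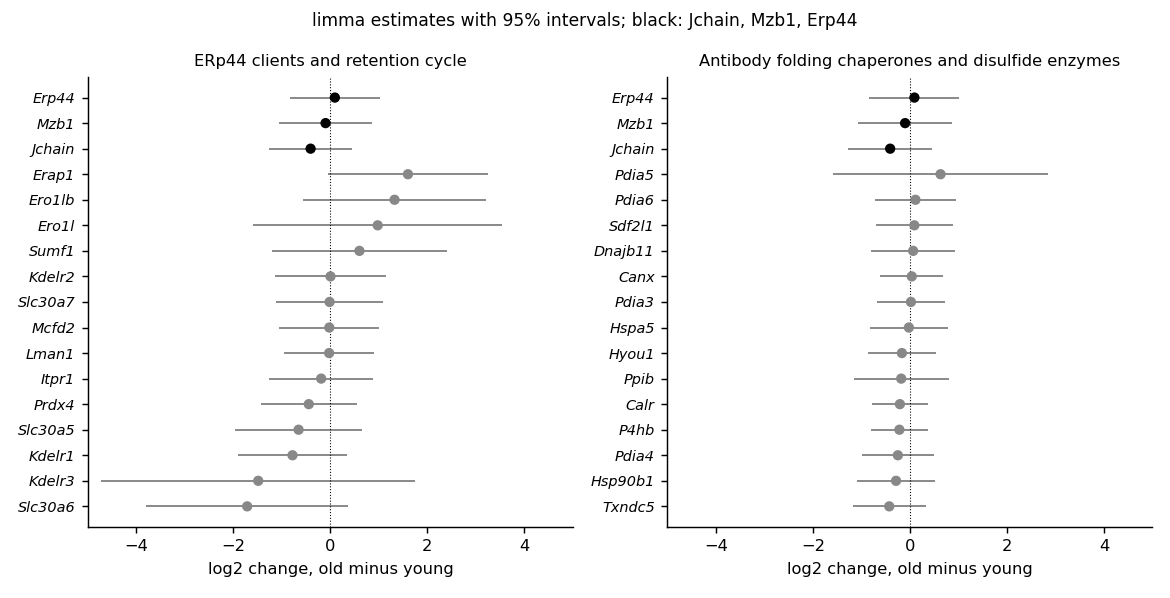
Limma log2 changes, old minus young, with 95% intervals for the 14 ERp44 partners (left) and the 14 folding genes (right), each with Erp44, Mzb1 and Jchain on top in black. Every interval includes 0, and those of the partners are mostly wider than those of the folding genes.

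Transcription factors that act on the Jchain promoter or on plasma cell identity were measured for 11 of 12 listed genes. Limma called 0, with 3 positive and 8 negative changes and a median of -0.19, against 4 positive, 7 negative and a median of -0.10 without old replicate 3. Pou2af1, the OCA-B coactivator, was at 285, 314 and 217 FPKM in old libraries and 409, 334 and 457 in young ones. Groups did not overlap for 2 of the 11, Pou2af1 and Pax5, both lower in old libraries, against 3.42% of all tested genes. For Pou2af1 limma gave a log2 difference of -0.56 ± 0.28 (SE) at an adjusted p = 0.839. Pax5, which represses Jchain in B cells, was low throughout, at most 2.44 FPKM in old and 7.26 in young libraries. Its groups were barely apart, with 2.440 FPKM in old replicate 3 and 2.448 in young replicate 3. Spi1, the PU.1 gene, was 21.2 ± 10.1 against 24.1 ± 10.1 FPKM, and Mef2c was 51.7 ± 12.8 against 48.0 ± 8.29 (SD, n = 3 each). Prdm1, the Blimp-1 gene, was at 106, 74.7 and 45.1 FPKM in old libraries and 51.6, 142 and 154 in young ones. Irf4 was at 331, 281 and 151 FPKM in old libraries and 259, 217 and 348 in young ones.

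Secretion of polymers also needs the secreted form of the heavy chain. The factors Ell2, Eaf2, Cstf2 and Pcf11, which act in elongation and at the transcript's 3′ end, all had log2 changes above 0 (median 0.14), and limma called 0 of the 4. Over all tested genes 6552 of 10687 changes were positive, with a median of 0.23, so this does not set the 4 apart. Ell2, which favours the secreted form, was 203 ± 41.0 FPKM in old and 188 ± 31.7 in young libraries (SD, n = 3 each). Eaf2 was 52.7 ± 15.8 against 50.2 ± 8.89 FPKM, Pcf11 was 22.3 ± 8.59 against 19.1 ± 6.76, and Cstf2 was at 20.5, 9.83 and 13.3 FPKM in old libraries against 6.06, 12.7 and 5.97 in young ones. Antibody heavy and light chain genes had 0 rows in the table and were not analysed here.

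Of the receptors and carriers of polymeric antibody, Fcmr, an Fc receptor for IgM, was the 1 gene of 4 that reached the filter of 1 FPKM. It was at 34.6, 16.3 and 22.2 FPKM in old libraries and 40.8, 30.3 and 44.0 in young ones, and its log2 change was -0.68 ± 0.44 (SE, limma adjusted p = 0.848). Pigr, the epithelial receptor for J chain polymers, was at most 0.0997 FPKM in old and 0.856 in young libraries. Fcamr was listed at 0 in all young libraries and was at most 0.214 in old ones. Cd5l, a macrophage protein that rides on IgM, was above 1 FPKM in old replicate 2 alone, at 4.75.

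**Figure D4:**
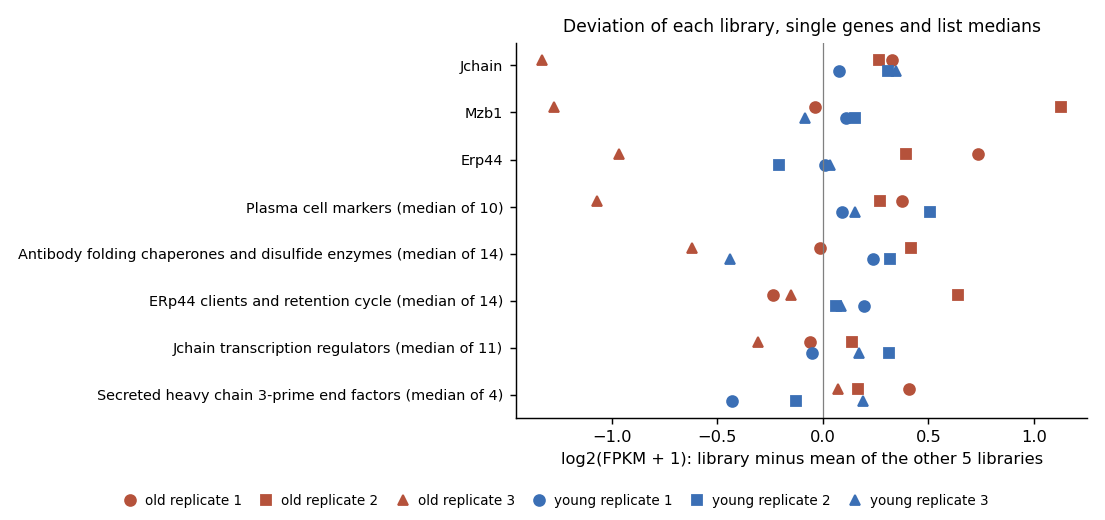
Each library minus the mean of the other 5 on the log2(FPKM + 1) scale (horizontal axis) for Jchain, Mzb1 and Erp44 and for the medians of 5 gene lists, old above and young below in each row. Old replicate 3 stands at -1.33, -1.27 and -0.96 for the 3 genes and at -1.07 for the plasma cell markers, and closer to the others for the ERp44 partners (-0.15) and the 3′ end factors (0.07).

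Genes whose pattern was most like each of the 3 were sought by Pearson correlation of log2(FPKM + 1) over the 6 libraries, among 2778 named genes of at least 20 FPKM, as a description with no p, since the points share library, depth and scaling. For Jchain, 39 genes had r of at least 0.9. The 5 closest were Cacna1h (r = 0.988), Timm21 (0.986), Rab1b (0.984), Tspan4 (0.979) and Psme2b (0.977). Cacna1h, a T-type calcium channel gene, was at 108, 91.3 and 42.4 FPKM in old libraries and 93.3, 95.7 and 105 in young ones. Without old replicate 3, r for these 5 genes was 0.608, 0.205, 0.411, 0.421 and 0.920 in the same order, and 1 of the 39 stayed at 0.9 or more, so the likeness to Jchain rests on that library for the rest.

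For Mzb1, 13 genes had r of at least 0.9, led by Edem1 (r = 0.985), Sdc4 (0.972), Sdf2l1 (0.964), Ganab (0.960) and Srp9 (0.950). Edem1, which directs misfolded glycoproteins to degradation, was at 251, 393 and 129 FPKM in old libraries and 250, 293 and 230 in young ones. Without old replicate 3 its r with Mzb1 was 0.960 and those of the other 4 were 0.914, 0.951, 0.921 and 0.853 in the same order. Of the 13, 4 stayed at 0.9 or more. The 5 named were all highest in old replicate 2, where Mzb1 was highest, and lowest in old replicate 3.

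For Erp44, 22 genes had r of at least 0.9, led by Itgal (r = 0.959), Dennd5b (0.951), Farp2 (0.951), Rnf25 (0.945) and Hid1 (0.942). Itgal, an integrin subunit, was at 104, 103 and 48.0 FPKM in old libraries and 91.8, 70.1 and 79.5 in young ones. Without old replicate 3 the values of r were 0.871, 0.977, 0.882, 0.944 and 0.851 in the same order, and 6 of the 22 stayed at 0.9 or more. Among the 3 genes themselves r was 0.795 for Jchain with Mzb1, 0.828 for Jchain with Erp44 and 0.728 for Mzb1 with Erp44, and without old replicate 3 it was -0.11, 0.24 and 0.19.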

How the data were processed

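RNA from 5 ng per library was made into stranded total-RNA libraries with a template-switching kit that removes ribosomal cDNA, per the labels' protocols. The deposited table holds FPKM values made by the authors, with 13642 gene rows and 6 library columns. Builds GRCm38 and mm10 stand in the submitters' processing notes, beside the tools bcl2fastq 2.17, STAR and DESeq2, whose roles are not stated. The counter, its use of strand and the annotation release are not given in the sources used here. FPKM are not counts, so no count model was run. Fragments per library were estimated from the smallest steps of low values and merged exon lengths of GENCODE M21 (99.9% of identifiers matched without version).

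Log2(FPKM + 1) was fitted with limma 3.58.1 in R 4.3.3 (empirical Bayes with a trend) over 10687 genes with a mean of at least 1 FPKM, two-sided, with Benjamini-Hochberg adjustment. Log2 changes are old minus young. Exact permutation tests, two-sided, were used for ratios and shares. The limma fit alone was tested on simulated data. Python 3.11.15, numpy 2.4.6, pandas 2.3.3, scipy 1.17.1 and matplotlib 3.10.9 were used. Genes named are the 3 genes, list members by a rule of smallest p or function, the 5 most alike and some, not all, of the leading cell type markers. Others were chosen after their values were seen. These are Capn5, Prob1 and the further markers Prtn3, S100a9, Ngp, Lcn2, Mcpt8, Cpa3, Ms4a2, Cd79a, Cd79b, Cox6a2 and Pacsin1. The 3 genes and all lists were chosen with earlier results of these data known. Alternatives covered pseudocount, filter, scaling, weights, a replicate block and each library left out. Reads amplified from 5 ng are not independent molecules, so fragment numbers cover counting error alone. A gene of the B cell marker list is not reported here and was left out of its sum.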

Additional observations from a re-analysis of the deposited data

How the results depend on the processing

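No alternative called Jchain, Mzb1 or Erp44: the limma adjusted p lay between 0.781 and 1 for Jchain, 0.943 and 1 for Mzb1, and 0.946 and 1.00 for Erp44. Of the results that answer a comparison, 99 alternative values kept their direction or number called, 11 changed sign or came to 0, and 3, all numbers of genes called, moved. Side of the threshold was compared for the limma results alone. The replicate block, the changes of filter and robust moderation cannot alter a gene's difference in means. The direction under them was thus fixed in advance, though they are counted among the 99. The log2 change of Erp44 was -0.0065 under median-ratio scaling. Under quantile normalization that of Jchain was 0, since the top gene of every library is set to 1 value, and that of Mzb1 was 1e-04. With array weights Mzb1 stood at 0.20. For Erp44 and Mzb1 the cause was not tested. The number of genes called was 1 under quantile normalization, array weights and robust moderation, and 0 otherwise. Without single libraries the log2 change ran from -0.647 to 0.0439 for Jchain, -0.60 to 0.41 for Mzb1 and -0.19 to 0.52 for Erp44, and the Jchain share of FPKM from -1.91 to 0.11 percentage points. Log2 ratio differences ran from -0.54 to -0.02 for Jchain to Mzb1, -0.60 to -0.41 for Jchain to Erp44, -0.54 to 0.0866 for Mzb1 to Erp44, and, relative to the plasma cell markers, -0.002 to 0.16 for Jchain, 0.02 to 0.59 for Mzb1 and 0.42 to 0.71 for Erp44.

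Replicate numbers did not pair the libraries: deviations of same-numbered libraries from their group means correlated at -0.03, 0.02 and -0.004, and not every library correlated best with its own number. With the replicate block the log2 changes were -0.41, -0.10 and 0.09 for Jchain, Mzb1 and Erp44, with limma adjusted p = 0.898, 0.985 and 0.992, and 0 genes were called. The exact sign-flip p over the 3 pairs was 0.25, the smallest possible, for both Erp44 ratios that did not overlap. Each of the 3 genes had at least about 3330 fragments in every library by the step estimate, which does not give the number of molecules sampled before amplification.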
